A study of Mus musculus with 51 samples.

Results

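The parental bias of H3K27me3 was examined in wild-type extra-embryonic ectoderm (ExE), the part of the early mouse conceptus that gives rise to the placenta. It rests on 4 of the 51 libraries of the series. The 2 B6/CAST libraries came from embryos of C57BL6/Babr mothers and CAST/Ei fathers (CAST below), and the 2 CAST/B6 libraries from the reverse mating, the mother being written first. Each library was made by ultra low-input native chromatin immunoprecipitation from the pooled ExE of 8 wild-type embryos at embryonic day (E) 6.5. For comparison, the same peaks were read in 2 libraries of matDKO/CAST ExE, labelled replicates 2 and 3, at the same age. Their mothers were B6/129 females with floxed Dnmt3a and Dnmt3b and the Zp3 transgene, which deletes both genes in the growing oocyte and leaves the egg without DNA methylation, and their fathers were CAST.

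The reads had been assigned to the maternal or the paternal allele and counted over H3K27me3 peaks. Of 23683 peaks, 22515 were autosomal, and 18592 of these were informative, meaning that 20 or more reads fell on either allele in 1 of the wild-type libraries. A peak was called imprinted when the quasi-likelihood test of edgeR gave an adjusted p below 0.05 in both crosses with the same parent higher. This left 251 peaks, or 1.35% of those tested. More H3K27me3 lay on the paternal allele in 209 of them (1.12%) and on the maternal allele in 42 (0.226%). Within single crosses more peaks passed, 2044 in B6/CAST (5.98% paternal and 5.02% maternal) and 4054 or 21.8% in CAST/B6 (11.5% and 10.3%), and these include strain effects. Where the same strain was higher in both crosses the peak was called strain-specific, and 804 peaks (4.32%) were of that kind. Shares below are paternal reads in percent of allelic reads, given for B6/CAST replicates 1 and 2 and then CAST/B6 replicates 1 and 2. Log2 ratios are paternal over maternal, with the standard error, for B6/CAST and then CAST/B6.

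H3K27me3 is written by Polycomb repressive complex 2 and covers genes that are silent or held ready. Imprinted genes are expressed from the allele of 1 parent, and most of them follow DNA methylation that was set in the egg or the sperm. A smaller, noncanonical group follows H3K27me3 that the egg passes on, and its members are expressed from the paternal allele in extra-embryonic tissue. In the same tissue the long noncoding RNAs Airn and Kcnq1ot1, transcribed from the paternal chromosome, silence genes over long distances on that chromosome.

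The wild-type libraries held 3.38 to 6.58 M autosomal allelic reads, of which 49.4 to 50.9% were paternal. The matDKO/CAST libraries held 2.11 and 2.74 M, of which 46.9 and 44.2% were paternal, so a peak without bias lies below 50% there. Libraries of a group differed by more than counting error (chi-square per degree of freedom between 1.16 and 1.44). The p-values below rest on the spread of each allele's counts between these pools, without pairing the 2 alleles of a pool. H3K4me3 at start sites was used to check the tissue. Of 8 ExE markers, 4 (among them Cdx2, Tfap2c and Bmp4) were higher in every ExE library than in every epiblast library, and 2 were lower in every one, Sox2 (15.9 to 23.2 against 29.5 to 37.5 RPKM) and Esrrb (0.160 to 0.392 against 0.481 to 0.841). Of 6 epiblast markers 4 were lower. Elf5, a defining ExE factor, was at 0.167 to 0.574 RPKM in ExE and 0.0911 to 0.448 RPKM in epiblast. Each gene was read within 1000 bases of a single annotated start. There Elf5 and Esrrb were near the ExE H3K4me3 median over all informative H3K27me3 peaks (0.220 RPKM), and other start sites were not read. The paper labels both as genes of preferential ExE expression. Of 8 visceral endoderm markers, 4 were higher in every ExE library than in every epiblast library and 1, Sox17, was lower (2.52 to 7.00 against 7.54 to 12.4 RPKM), with means of 1.25 to 16.2 RPKM over the list. Of 8 decidua and leukocyte markers 0 were higher and 3 (Pgr, Dcn and Col1a1) lower, with means of 0.189 to 10.4 RPKM over the list, and the lowest were Dcn and Ptprc at 0.146 to 0.337 and 0.133 to 0.253 RPKM. The part of other cell types in the allelic values was not tested, and in bulk pools fewer marked cells and less mark per cell cannot be told apart.

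Imprinted peaks often covered promoters. Shown here are those of listed imprinted genes only, in the most strongly biased isolated peaks, so that promoters of opposite direction can be compared. They are RefSeq promoters on GRCm38.p6, from 250 bases before to 50 bases after the start site, in the direction of transcription, with each CpG in capitals. Where a peak holds several promoters of the gene, the one with the most CpG is printed. Zdbf2 and Gnas appear with a promoter in a maternally biased peak and another in a paternally biased one.
Zdbf2 upstream promoter, paternal peak, chr1:63200108-63200407, plus strand: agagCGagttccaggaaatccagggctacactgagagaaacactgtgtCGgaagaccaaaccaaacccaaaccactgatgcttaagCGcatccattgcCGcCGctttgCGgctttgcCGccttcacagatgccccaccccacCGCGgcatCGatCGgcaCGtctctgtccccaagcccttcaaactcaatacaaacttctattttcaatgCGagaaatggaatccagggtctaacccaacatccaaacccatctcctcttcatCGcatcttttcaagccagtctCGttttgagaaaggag
Zdbf2 downstream promoter, maternal peak, chr1:63273019-63273318, plus strand: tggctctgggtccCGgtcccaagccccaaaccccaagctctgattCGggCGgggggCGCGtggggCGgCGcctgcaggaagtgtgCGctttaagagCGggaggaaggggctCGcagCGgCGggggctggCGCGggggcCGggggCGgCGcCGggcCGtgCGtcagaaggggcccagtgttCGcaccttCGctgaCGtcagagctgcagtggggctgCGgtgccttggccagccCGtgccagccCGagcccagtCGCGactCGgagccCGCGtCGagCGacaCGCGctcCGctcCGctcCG
Gnas upstream promoter, maternal peak, chr2:174284070-174284369, plus strand: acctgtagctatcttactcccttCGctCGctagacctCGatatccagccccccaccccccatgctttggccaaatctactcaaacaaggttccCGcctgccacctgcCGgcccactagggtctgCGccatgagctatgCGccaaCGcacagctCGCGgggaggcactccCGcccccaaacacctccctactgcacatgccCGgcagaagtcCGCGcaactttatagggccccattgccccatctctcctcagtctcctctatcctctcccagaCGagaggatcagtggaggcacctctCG
Gnas downstream promoter, paternal peak, chr2:174327518-174327817, plus strand: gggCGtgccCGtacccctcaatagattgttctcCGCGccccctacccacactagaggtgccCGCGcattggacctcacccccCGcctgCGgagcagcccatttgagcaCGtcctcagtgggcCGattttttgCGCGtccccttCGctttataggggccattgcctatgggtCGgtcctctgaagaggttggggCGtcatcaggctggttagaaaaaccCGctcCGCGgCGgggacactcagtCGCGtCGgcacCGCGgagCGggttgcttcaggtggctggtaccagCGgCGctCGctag
Sfmbt2 promoter, maternal peak, chr2:10372186-10372485, plus strand: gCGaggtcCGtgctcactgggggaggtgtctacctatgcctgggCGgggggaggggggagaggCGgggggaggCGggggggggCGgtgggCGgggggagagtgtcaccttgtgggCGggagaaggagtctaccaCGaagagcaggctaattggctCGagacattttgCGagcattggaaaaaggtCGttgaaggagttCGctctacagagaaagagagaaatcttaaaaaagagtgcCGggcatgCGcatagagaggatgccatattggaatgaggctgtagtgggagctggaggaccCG
Sall1 promoter, maternal peak, chr8:89042813-89043112, minus strand: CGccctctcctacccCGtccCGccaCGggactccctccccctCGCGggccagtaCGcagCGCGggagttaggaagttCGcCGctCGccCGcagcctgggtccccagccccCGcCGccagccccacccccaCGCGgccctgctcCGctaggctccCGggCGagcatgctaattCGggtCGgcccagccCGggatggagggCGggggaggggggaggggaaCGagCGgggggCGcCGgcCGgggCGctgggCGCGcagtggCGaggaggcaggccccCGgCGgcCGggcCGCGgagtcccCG
Plagl1 promoter, paternal peak, chr10:13090582-13090881, plus strand: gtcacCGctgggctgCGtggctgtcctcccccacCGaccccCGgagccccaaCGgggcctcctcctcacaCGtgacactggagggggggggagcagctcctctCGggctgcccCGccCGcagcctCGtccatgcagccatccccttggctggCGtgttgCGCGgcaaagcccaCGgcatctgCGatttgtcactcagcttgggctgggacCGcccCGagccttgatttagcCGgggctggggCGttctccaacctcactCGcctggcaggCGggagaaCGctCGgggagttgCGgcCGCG
Grb10 promoter, paternal peak, chr11:12037371-12037670, minus strand: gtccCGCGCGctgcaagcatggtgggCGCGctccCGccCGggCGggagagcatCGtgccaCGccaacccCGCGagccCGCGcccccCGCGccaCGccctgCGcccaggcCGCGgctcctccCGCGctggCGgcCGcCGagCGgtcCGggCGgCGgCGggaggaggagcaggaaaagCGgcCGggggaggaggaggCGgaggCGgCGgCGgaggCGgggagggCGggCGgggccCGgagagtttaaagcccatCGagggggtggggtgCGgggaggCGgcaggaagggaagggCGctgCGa

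These promoters hold 15 and 38 CpG at Zdbf2, 16 and 28 at Gnas, 16 at Sfmbt2, 39 at Sall1, 26 at Plagl1 and 45 at Grb10. Other promoters of the same genes in the same peaks held fewer, 9 at Sfmbt2, 27 and 18 at Sall1, 9 at Grb10 and 27 at the downstream Gnas promoter. Over all 31396 autosomal promoters of this length the median was 7 CpG (quartiles 3 and 21), and 94.8% held at least 1. The promoter of Rian, in a paternal peak on chromosome 12, held 0. Over the 56 promoters in isolated maternal peaks the median was 8, and over the 97 in isolated paternal peaks it was 5, so the density of the promoters printed above was not that of the typical member.

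**Figure D1:**
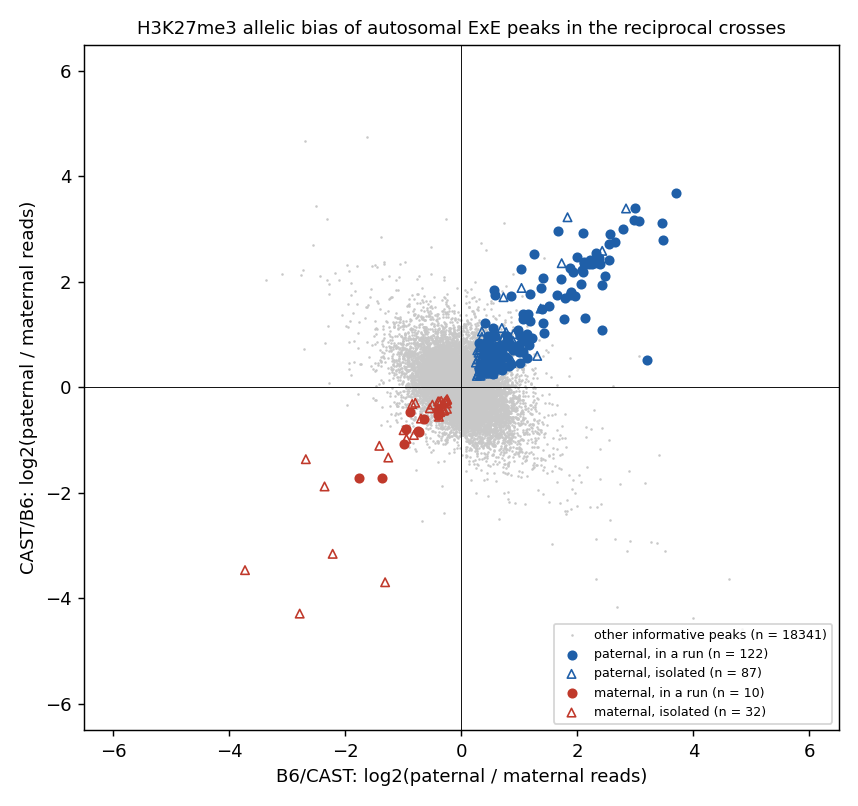
Log2 ratio of paternal to maternal H3K27me3 in B6/CAST (horizontal) and CAST/B6 (vertical) for informative autosomal peaks. Grey points are peaks not called imprinted, of which 1 lies beyond the axes, filled circles are imprinted peaks in runs and open triangles isolated ones; blue is paternal (209) and red maternal (42).

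The imprinted peaks were of unequal strength. When imprinted peaks of the same direction were joined across gaps of up to 1 Mb, 9 groups held 5 or more peaks and were treated as runs. Runs held 122 paternal and 10 maternal peaks, which left 87 paternal and 32 maternal peaks isolated. The smaller of the 2 crosses' log2 ratios was at least 1 in 53 of the 122 paternal peaks in runs but in 7 of the 87 isolated ones, and in 8 of the 32 isolated maternal ones. In all 251 peaks each of the 4 libraries leaned to the called side, which the call itself favours. Over all informative peaks 6.87% had a paternal share above, and 10.6% below, the autosomal share in every library.

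**Figure D2:**
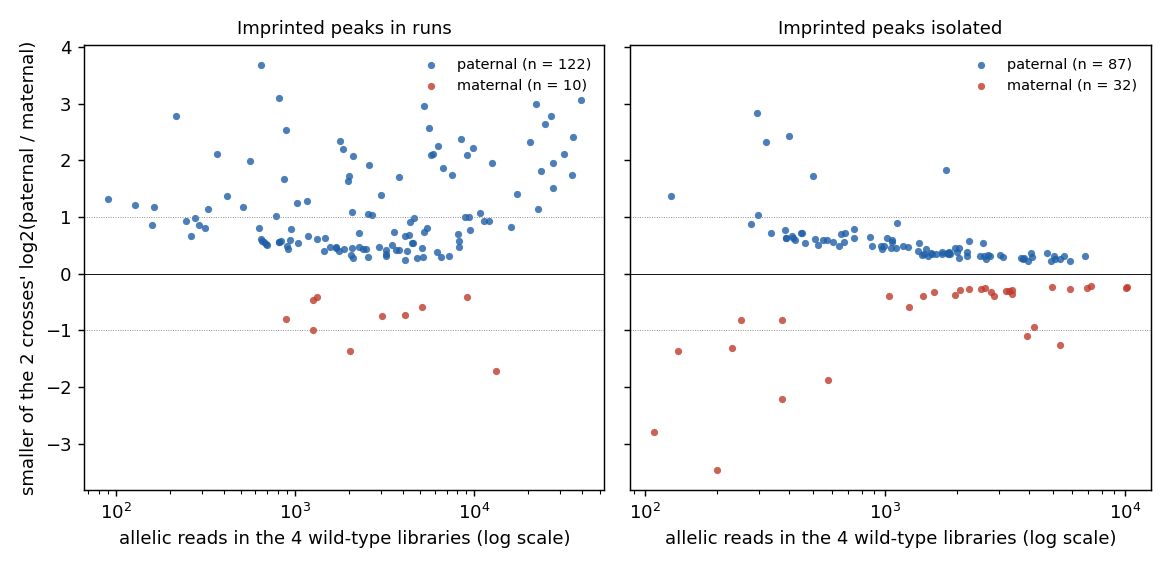
The smaller of the 2 crosses' log2 ratios (paternal over maternal, vertical) against the allelic reads of the 4 wild-type libraries (log scale), for imprinted peaks in runs (left) and isolated (right). Isolated paternal peaks run down to 0.22 where reads are many, and 7 of 87 reach 1 (upper dotted line).

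Maternal H3K27me3 at isolated peaks was found at genes of the noncanonical list. The paper reports no maternal H3K27me3 enrichment at noncanonical long terminal repeats in ExE, and a subtle maternal bias at noncanonical H3K4me3 peaks. It found a single such H3K4me3 peak with imprinted H3K27me3. Here any H3K27me3 peak within 10000 bases of a listed gene counts, so the measures differ. Of 8 listed genes 7 had an informative peak, and 5 of them (Sfmbt2, Sall1, Smoc1, Platr20 and Zfp64) had an imprinted one, each with more H3K27me3 on the maternal allele, the silent one, where 0.226% of all informative peaks were called maternal. Of the 5, Smoc1, Platr20 and Zfp64 lost the call without B6/CAST replicate 1 and with DESeq2, Smoc1 and Zfp64 also without B6/CAST replicate 2 and at adjusted p below 0.01, and the start peak of Sfmbt2 and Sall1 kept it under all settings. Sfmbt2 encodes a Polycomb protein needed for the trophoblast. The peak over its start site (chromosome 2, 10276000 to 10382500, GRCm38) had paternal shares of 27.8 and 29.0% in B6/CAST and 26.98 and 30.9% in CAST/B6. The 4 libraries were close to each other, and the log2 ratio was -1.26 ± 0.09 (SE) and -1.33 ± 0.08 (adjusted p = 3.45e-19 and 1.16e-27). A short peak in its introns (10405500 to 10411000) had the largest maternal bias by the weaker cross, with 1, 4, 4 and 6 paternal reads against 35, 38, 73 and 39 maternal ones.

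Sall1, a zinc-finger transcription factor, had paternal shares of 9.16 and 26.3% in B6/CAST and 20.8 and 22.7% in CAST/B6 over its start site (chromosome 8, 89030500 to 89052000). B6/CAST replicate 1 was lowest, and all libraries were far from even. The log2 ratio was -2.36 ± 0.26 and -1.88 ± 0.19 (adjusted p = 1.58e-10 and 7.37e-15). Smoc1, which encodes a secreted calcium-binding protein, had 30.0 and 22.7% in B6/CAST and 6.25 and 8.33% in CAST/B6 within the gene, so the crosses did not overlap, on 230 reads in all. The bias was smaller at Platr20, a noncoding RNA, with 36.1, 37.9, 41.9 and 37.8%, and at Zfp64, a zinc-finger gene, with 42.0, 42.0, 39.9 and 41.9% in the same order of libraries. Their log2 ratios lay between -0.70 and -0.39 in both crosses.

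The other isolated maternal peaks were not on that list, and of those named here 1700017I07Rik alone kept its call with DESeq2 and without B6/CAST replicate 1. At 2410003L11Rik (chromosome 11, 97605500 to 97618500) the paternal shares were 10.9, 27.6, 9.41 and 11.5%. B6/CAST replicate 2 stood above the other 3, with 8 paternal and 21 maternal reads. 1700017I07Rik (chromosome 9, 89779500 to 89895500) had 34.2, 31.8, 34.3 and 33.7%, with log2 ratios of -0.95 ± 0.09 and -0.97 ± 0.09. The adjacent peak of Rasgrf1, a Ras exchange factor with an imprint from the sperm, leaned the same way but less, at 41.3, 43.3, 41.1 and 46.6%. Fkbp6, Nphp4 and Gas7 had log2 ratios of at most -0.81 in both crosses on 137 to 372 reads. The remaining peaks were long and weakly biased: 20 of the 32 had a log2 ratio closer to 0 than -0.5, with a median of 3028.5 reads. Among them were Actl6b, a subunit of the neuronal chromatin remodelling complex (43.7, 40.8, 42.0 and 42.7%), Slit1, an axon guidance ligand (42.2, 46.8, 45.0 and 45.2%), and Spsb1 (45.0, 43.4, 45.7 and 46.6%). The well covered peaks of Izumo2, Bdkrb1 (a bradykinin receptor), Arhgap27 and Cnnm1 had paternal shares from 43.1 to 48.4% over the 4 libraries.

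**Figure D3:**
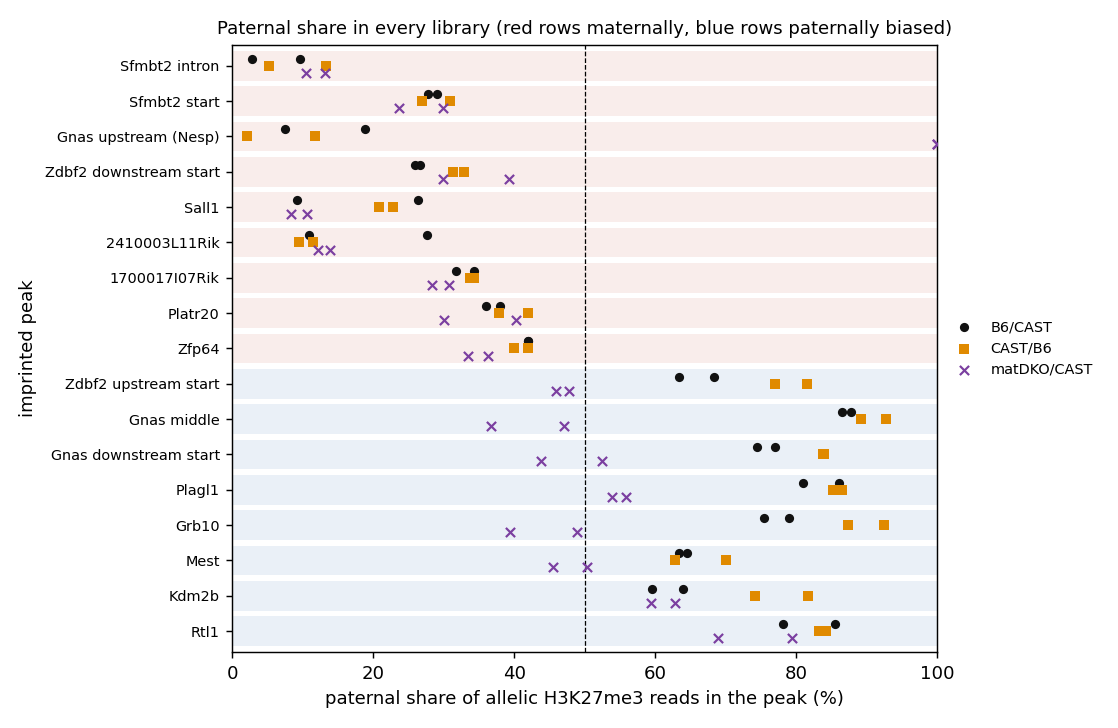
Paternal share of allelic H3K27me3 reads (%) in each library at 17 isolated imprinted peaks; circles are B6/CAST, squares CAST/B6 and crosses matDKO/CAST, and the dashed line marks 50%. Wild-type symbols stay on the side of their row's colour, while crosses lie at 48.9 and 39.4% for Grb10 and 53.9 and 55.8% for Plagl1 and stay low at Sfmbt2 and Sall1; the crosses of the Gnas upstream peak rest on 1 read each.

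At several loci peaks of opposite direction lay side by side. At Zdbf2, a paternally expressed growth gene with an upstream and a downstream promoter, the peaks were 15 kb apart. The upstream peak (chromosome 1, 63192500 to 63204000) had paternal shares of 63.5 and 68.3% in B6/CAST and 77.1 and 81.6% in CAST/B6. The downstream peak (63219000 to 63284000), which covers the downstream promoter, had 26.6, 25.9, 31.3 and 32.8%. The log2 ratio was thus 1.04 ± 0.29 and 1.89 ± 0.25 upstream and -1.41 ± 0.10 and -1.11 ± 0.09 downstream, on opposite sides in every library. The downstream peak kept its call under all 11 settings tried, while the upstream peak lost it at adjusted p below 0.01, with DESeq2 and without either B6/CAST replicate.

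The Gnas locus makes several transcripts from promoters of opposite imprinting and had peaks in both directions. The upstream peak, which holds start sites of Gnas and, in GENCODE, of a short transcript of its antisense RNA Nespas (chromosome 2, 174284000 to 174289000), had 2, 3, 1 and 2 paternal against 25, 13, 48 and 15 maternal reads. It rested on 109 reads, and its log2 ratios were -2.79 ± 0.55 and -4.29 ± 0.55 (adjusted p = 1.93e-04 and 4.81e-10). Its call was lost with DESeq2 and without B6/CAST replicate 1. Only 7 kb away, the middle peak (174296000 to 174310500) had paternal shares of 87.8, 86.5, 92.7 and 89.3%. The peak at the downstream promoter had 77.0, 74.5, 83.9 and 84.0%. Beyond the gene, toward Nelfcd and Prelid3b, the bias was maternal again, and it was weaker in CAST/B6 (log2 ratios of -0.31 and -0.29) than in B6/CAST (-0.85 and -0.79). The difference between the crosses was not tested. Both of these peaks lost the call with DESeq2 and without CAST/B6 replicate 1, and Prelid3b also without CAST/B6 replicate 2 and at adjusted p below 0.01.

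Sfmbt2 was likewise set among peaks of the other direction. A run of 5 paternal peaks on chromosome 2 held the neighbours Itih2 and Itih5 on one side and the stretch beyond the end of Sfmbt2 on the other. The nearest of them lay 34.5 kb from the maternal peak over the start site, and its log2 ratios were 0.44 and 0.49. The peak beyond the gene (10600000 to 10691500) was stronger, with shares of 67.7, 65.0, 72.6 and 72.9% and log2 ratios of 1.06 ± 0.11 and 1.39 ± 0.10. It was the only 1 of the 5 to keep its call with DESeq2 or without B6/CAST replicate 1, so no run is left there under either setting. On chromosome 10, Kif5a, a kinesin, was maternal (44.2, 43.0, 42.0 and 43.8%) and Lrp1, a lipoprotein receptor, paternal (56.3, 51.7, 60.3 and 58.2%) at 259 kb from it. Both calls were lost at adjusted p below 0.01, with DESeq2 and without B6/CAST replicate 1, that of Kif5a also without B6/CAST replicate 2 or CAST/B6 replicate 1, and that of Lrp1 with library totals.

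The single maternal run spanned 1.97 Mb of chromosome 12 around Dlk1 and Dio3, 2 paternally expressed genes of a domain whose imprint comes from the sperm. It held 10 imprinted peaks of 19 informative ones, and its pooled paternal share was 31.4 and 33.5% in B6/CAST and 32.5 and 34.8% in CAST/B6. Dlk1, a growth regulator of the Notch ligand family, had the strongest bias of the run, with 20.3, 23.7, 22.7 and 24.4% and log2 ratios of -1.76 ± 0.08 and -1.72 ± 0.07. Mirg, a maternally expressed microRNA host, had 27.02, 26.5, 23.0 and 24.5%. Toward the ends the bias was smaller, with 40.7, 42.8, 40.5 and 42.1% at Dio3, a deiodinase, and 38.8, 45.5, 41.0 and 45.7% at Eml1. Begain, between Eml1 and Dlk1, had 37.7, 38.0, 39.2 and 41.5%. Eml1, which sets the start of the run, lost its call at adjusted p below 0.01, with DESeq2, without either B6/CAST replicate and without CAST/B6 replicate 1, and Dio3 at the other end lost it without B6/CAST replicate 1. Inside the run, 98 kb from the Dlk1 peak, the peak at Rtl1 and Rian ran the other way, with 85.6, 78.2, 84.3 and 83.3% and log2 ratios of 2.33 ± 0.28 and 2.35 ± 0.26. This peak is the isolated paternal member of the domain. If an opposite peak ends a run, it cuts off Eml1, Begain and Dlk1, and 7 peaks are left in the maternal run.

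Several of the strongest isolated paternal peaks lay at known imprinted genes. Plagl1, a zinc-finger growth regulator expressed from the paternal allele, had 86.2, 81.0, 86.5 and 85.2% (chromosome 10, 13083000 to 13095500; log2 ratios of 2.43 ± 0.25 and 2.59 ± 0.24). Grb10, a growth factor receptor adaptor, had 75.4 and 79.0% in B6/CAST and 92.5 and 87.3% in CAST/B6, so CAST/B6 was higher without overlap. Mest, a paternally expressed hydrolase gene, was milder, with 63.3, 64.5, 70.1 and 62.8% and log2 ratios of 0.90 ± 0.13 and 1.01 ± 0.14. With the 2 Gnas peaks, the upstream Zdbf2 peak and Rtl1, Plagl1 and Grb10 made up 6 of the 7 isolated paternal peaks at a log2 ratio of at least 1. The other was a peak of 129 reads within Zfp945, a zinc-finger gene, with 78.1, 63.0, 74.5 and 73.3%, whose call was lost at adjusted p below 0.01, with DESeq2 and without B6/CAST replicate 1 or CAST/B6 replicate 1. The list of single promoters with a germline imprint was not paternal as a whole. Of its 9 genes with an informative peak 5 had an imprinted one, 2 paternal (Plagl1 and Cdh15) and 3 maternal by the best covered peak (Zdbf2 and Gpr1, which share it, and Rasgrf1).

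The remaining isolated paternal peaks were weak, and few held under every setting. Of the 87, 6 kept the call whichever library was left out, and 9 kept it with DESeq2. The log2 ratio was under 0.5 in 51 of the 87 and between 0.5 and 1 in 29. Chromosomes 7 and 17 held 17 and 14 of the 87, and 56 were spread over other autosomes. Their pooled paternal share was 56.4, 56.1, 61.0 and 59.7% on chromosome 7, 56.6, 58.6, 58.6 and 57.3% on chromosome 17 and 56.2, 56.4, 59.1 and 58.7% elsewhere. The libraries' ranges overlapped between these 3 groups. Cdh15, a cadherin with an imprinted promoter, was 1 of the 56, at 51.8, 56.4, 60.4 and 63.4%. Kdm2b, a histone demethylase that brings Polycomb to CpG islands, had 2 of the 56 peaks. The peak from 122979000 to 122989000 of chromosome 5 had 59.5, 64.0, 74.2 and 81.7%, and that from 122934000 to 122960000 had 55.9, 61.7, 67.7 and 59.4%. Cav1, which encodes caveolin, had 60.9, 63.2, 67.3 and 68.2%, and Flt1, a vascular endothelial growth factor receptor, 59.4, 56.6, 60.8 and 65.1%. Lower still were Pitx1, a limb and pituitary transcription factor (56.8, 53.2, 55.4 and 56.2%), Nrg4, a neuregulin (52.5, 55.5, 55.3 and 55.9%), and Rims3, a presynaptic protein (52.8, 53.9, 54.6 and 53.5%). Rims3 had log2 ratios of 0.27 and 0.22, the smallest bias of the 251 by the weaker cross. The well covered peaks of Dlgap4 (a postsynaptic scaffold), Gm13052, Megf6, Cux2 (a homeobox factor), Cacng3, Gm47906 and 1700008K24Rik had shares from 51.5 to 59.4%, and Cux2 alone of these kept its call with DESeq2. Each of the peaks given with their libraries here, from Cdh15 on, lost its call with DESeq2 and without at least 1 of the B6/CAST replicates. Of 11 settings Rims3 kept it in 3, Cdh15 in 6, the Kdm2b peaks in 7 and 8, Cav1, Flt1 and Pitx1 in 7 and Nrg4 in 8.

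The 8 paternal runs differed in strength. The run of 45 peaks around Airn, Igf2r and Pde10a (chromosome 17, 9.53 Mb) had pooled shares of 82.0, 81.5, 84.0 and 81.6%. Within it, Igf2r, the receptor that clears IGF2, had 86.8, 86.5, 89.8 and 88.0%, the peak of Airn itself 82.5, 81.3, 85.0 and 82.0%, that of Dact2 79.9, 79.8, 80.3 and 79.3%, and that of Thbs2, a thrombospondin, 80.2, 80.3, 82.7 and 81.5%. The run of 11 peaks at Arid1b, a chromatin remodeller, on the same chromosome had 76.4, 75.7, 80.5 and 77.1%. The run of 14 peaks with Kcnq1ot1 had 72.1, 71.5, 72.9 and 71.2%. Its strongest peak was that of Cdkn1c, a brake on the cell cycle, with 83.5, 81.5, 86.8 and 83.9%, and its peak at Ccnd1, a cyclin, had 63.2, 63.4, 63.1 and 63.4%. Osbpl5, an oxysterol-binding protein, had 67.2, 65.8, 66.9 and 64.6% there, and Ano1, a chloride channel, 63.8, 62.2, 65.4 and 62.8%.

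The other 5 paternal runs were weaker. The 2 that continue along chromosome 7, of 24 and 8 peaks, had 58.5, 57.0, 63.0 and 61.6% and 55.2, 56.9, 58.8 and 56.6%. A run of 10 peaks at Rcan2 and Runx2 on chromosome 17 had 60.3, 62.6, 62.1 and 61.8%, a run of 5 at Zfhx3 on chromosome 8 had 55.9, 56.0, 62.8 and 59.5%, and that beside Sfmbt2 had 59.0, 57.3, 63.8 and 62.0%. In the longer run on chromosome 7 the most biased peak was that of Mgmt, a DNA repair gene (69.6, 57.8, 73.3 and 82.6% on 290 reads), and the best covered that of Tcerg1l (58.8, 58.6, 67.2 and 66.1%). In the shorter one these were Adam12, a metalloprotease (60.3, 73.9, 67.0 and 66.2% on 276 reads), and Gm35147 (53.3, 54.5, 57.4 and 55.2%). At Runx2 they were Cyp39a1 (65.4, 64.9, 68.9 and 67.3%) and AC153418.1 (59.7, 62.9, 63.7 and 62.7%), and beside Zfhx3 the best covered was Pmfbp1 (53.9, 53.8, 66.2 and 62.0%). In every library these 5 runs lay below the runs at Airn, Arid1b and Kcnq1ot1. With DESeq2, 7 of the 24 and 1 of the 8 peaks on chromosome 7 kept the call, 7 of the 10 at Runx2, 0 of the 5 at Zfhx3 and 1 of the 5 beside Sfmbt2, against 35 of 45 around Airn, 10 of 11 at Arid1b and 12 of 14 with Kcnq1ot1. Without B6/CAST replicate 1 the counts were 8, 3, 8, 2 and 1, against 38, 11 and 13. Without B6/CAST replicate 2 they were 12, 3, 9, 2 and 3, and without CAST/B6 replicate 1 they were 16, 1, 9, 3 and 3. The runs of 8 peaks and at Zfhx3 held 0 peaks that kept the call under all 11 settings.

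Peaks that were not called were examined for a lean of whole chromosomes. With runs left out, the median log2 ratio of uncalled peaks, set against each library's autosomal median, was paternal in all 4 wild-type libraries on 2 of 19 autosomes, chromosome 7 (0.05 to 0.11) and chromosome 17 (0.06 to 0.11). It was maternal in all 4 on chromosome 12 only (-0.07 to -0.04). On the other 16 single values spanned -0.07 to 0.09, so a lean of this size in a single library is not particular to the 3 chromosomes.

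**Figure D4:**
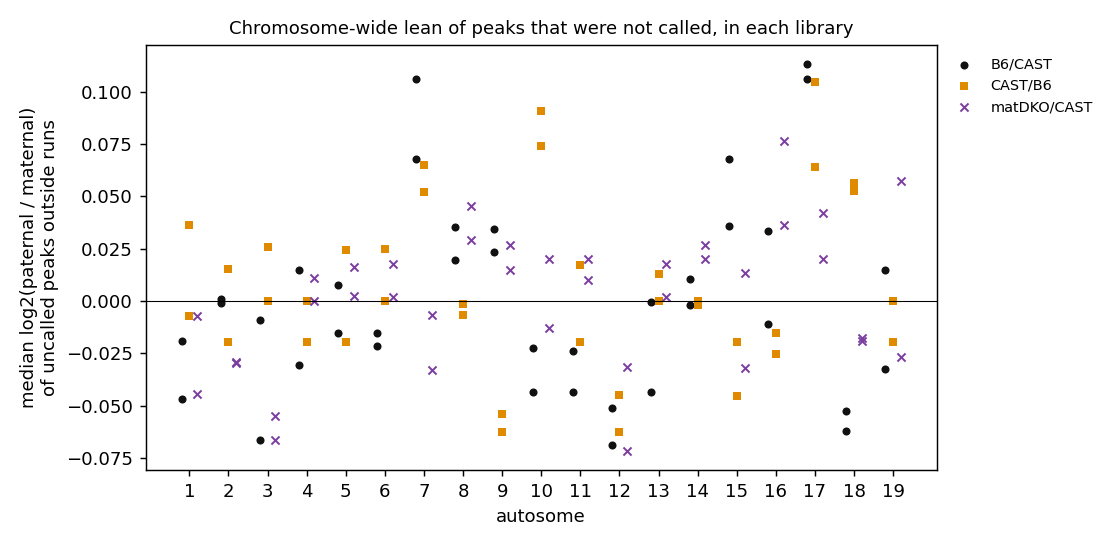
Median log2 ratio (paternal over maternal) of uncalled peaks outside runs on each autosome, relative to the library's autosomal median; circles are B6/CAST, squares CAST/B6 and crosses matDKO/CAST. All 4 wild-type symbols lie above 0 on chromosomes 7 and 17 only and below 0 on chromosome 12 only.

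On chromosome 7 the lean lay in the distal part. Within 35 Mb of the Kcnq1ot1 start site, 357 uncalled peaks outside runs had median log2 ratios of 0.23 and 0.14 in B6/CAST and 0.29 and 0.27 in CAST/B6. The other 720 peaks of the chromosome had 0.04, 0.04, -0.01 and -0.04. In bins of 5 Mb, the 6 bins from 35 to 5 Mb before the start site were paternal in every wild-type library, among 8 such bins of 22 on the chromosome, and 1 bin was maternal in every one. The distance of 35 Mb was chosen after these values were seen. In the matDKO/CAST libraries the distal peaks had 0.02 and -0.02. On chromosome 17, 6 of 12 bins were paternal in every wild-type library and 0 maternal. Over all uncalled peaks outside runs, the matDKO/CAST libraries leaned paternal on chromosome 17 too (0.04 and 0.02), and maternal on chromosome 12 (-0.03 and -0.07). Chromosome 16 had 0.08 and 0.04 in these libraries. The difference from wild type was not tested.

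**Figure D5:**
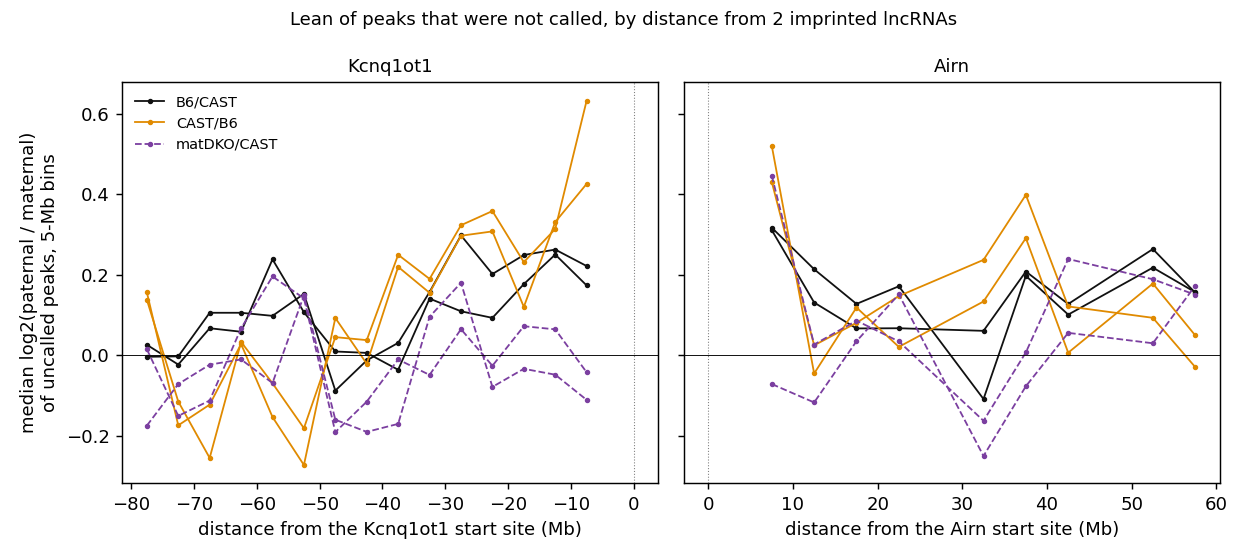
Median log2 ratio (paternal over maternal) of uncalled peaks in bins of 5 Mb by distance from the start sites of Kcnq1ot1 (left) and Airn (right); each line is a library, dashed for matDKO/CAST, and bins under 20 uncalled peaks are not drawn. The wild-type lines lie above 0 in each bin from -35 to -5 Mb of Kcnq1ot1.

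The matDKO/CAST libraries, which took no part in the calls, asked whether the bias is present when the egg lays down no DNA methylation. Over all informative peaks 2.10% were called in matDKO/CAST, 0.818% paternal and 1.29% maternal. Of the isolated paternal peaks 2 of 87 were called on the same side, against 15 of 122 in paternal runs, 9 of 32 isolated maternal peaks and 8 of 10 in the maternal run. The lean was to the same side in 155 of 209 paternal and in 39 of 42 maternal peaks, where over all informative peaks 50.3% leaned paternal. The median log2 ratio was 0.06 at isolated paternal peaks, 0.23 in paternal runs, -0.30 at isolated maternal peaks and -0.75 in the maternal run.

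The maternal peaks that kept a call included noncanonical genes. The paper classed imprints as noncanonical where allelic H3K4me3 remained in matDKO/CAST of this series, so this is not independent of the list. The Sfmbt2 start peak had paternal shares of 23.6 and 29.9% in matDKO/CAST (log2 ratio -1.20 ± 0.14, adjusted p = 5.89e-10), Sall1 8.33 and 10.5% (-2.98 ± 0.54, adjusted p = 1.17e-04), and Zfp64 36.3 and 33.5% (-0.62 ± 0.16, adjusted p = 0.0158). Platr20 had 30.1 and 40.3% and missed the threshold (adjusted p = 0.0700), as did Smoc1 with 10.5 and 41.7% (adjusted p = 0.340). Others called there were the short Sfmbt2 peak, 2410003L11Rik, 1700017I07Rik, Nphp4, Trerf1 and the downstream Zdbf2 peak. Dlk1 (19.1 and 25.7%) and 7 other peaks of its run were called as well. The difference from wild type was not tested for any peak.

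None of the paternal peaks at Plagl1, Grb10, Mest, Zdbf2 and Gnas was called in matDKO/CAST. The shares there were 53.9 and 55.8% at Plagl1 (log2 ratio 0.56 ± 0.26, adjusted p = 0.322), 48.9 and 39.4% at Grb10, 45.5 and 50.3% at Mest, 47.8 and 46.0% at the upstream Zdbf2 peak, and 36.8 and 47.1% and 52.5 and 43.8% at the 2 Gnas peaks. Called paternal were Rtl1 (79.4 and 68.9%, adjusted p = 7.65e-05), which lies in a domain imprinted by the sperm, and the Kdm2b peak from 122979000 (62.8 and 59.4%, adjusted p = 0.0309). Fignl2, an isolated peak on chromosome 15, went the other way, paternal in the wild type (58.7, 57.3, 63.7 and 63.0%) and called maternal in matDKO/CAST (35 and 37.0%, adjusted p = 0.0288). At the upstream Gnas peak 1 paternal and 0 maternal reads remained in each library, which gives no direction. Each library as a replicate block raised the peaks called on the same side from 34 to 69 (48 paternal and 21 maternal), and without matDKO/CAST replicate 2 or 3 they numbered 18 and 52. DESeq2 left 9.

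H3K4me3, the mark of active promoters, was compared at the same regions in the same pools. Of the 133 imprinted peaks that overlapped an informative H3K4me3 peak, 25 overlapped an imprinted one, against 0.491% of all informative H3K27me3 peaks with such an overlap. Of all 23211 informative H3K4me3 peaks 0.319% were imprinted, 0.190% paternal and 0.129% maternal. All 5 maternal ones carried paternal H3K4me3 (Sfmbt2, Sall1, Platr20, the downstream Zdbf2 peak and the upstream Gnas peak). Allelic H3K4me3 of these pools also defined the paper's noncanonical group, so the values at its genes are not independent of the list. At Sfmbt2 the paternal share of H3K4me3 was 85.7, 80.4, 87.8 and 85.1%, and at Platr20 84.0, 73.5, 94.6 and 96.7%. Sall1 was less one-sided, with 60.4, 56.1, 63.9 and 54.5% and adjusted p of 1.06e-04 and 0.0200. The H3K4me3 peak at Gnas spans both the upstream and the middle H3K27me3 peak, so it counts for either.

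Of the 20 paternal ones, 15 carried maternal H3K4me3, 14 of them in runs, with Cdkn1c (9.0, 15.2, 10.8 and 10.5% paternal), Igf2r (13.3, 17.5, 13.6 and 23.5%) and Pde10a (26.4, 36.8, 32.6 and 33.4%) as examples. Grb10 was the isolated one (6.4, 14.3, 6.5 and 6.2%). In the other 5 both marks were paternal, and 4 of these were isolated: Plagl1, Mest, the upstream Zdbf2 peak and the middle Gnas peak. Plagl1 had paternal H3K4me3 shares of 97.4, 91.8, 100 and 97.9%, and Mest 95.9, 97.5, 97.3 and 95.6%, so H3K4me3 was more one-sided there than H3K27me3. Whether both marks sat in the same cells was not measured.

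H3K36me3, which follows transcription through gene bodies, was compared in the same way. An imprinted H3K36me3 peak was met by 10 of 51 imprinted peaks with an informative one (0.613% of all informative peaks with such an overlap). Of all 7980 informative H3K36me3 peaks 0.251% were imprinted, 0.213% paternal and 0.0376% maternal. Over the maternal peaks of Sfmbt2 and Platr20 it was paternal (88.9, 85.9, 83.6 and 82.5% at Sfmbt2), and over Grb10 and Rtl1 with their paternal H3K27me3 it was maternal (20.8, 19.5, 23.8 and 24.9% at Grb10). Both marks were paternal at Igf2, Ascl2, Cdkn1c and the end of Sfmbt2. At Ascl2 and Cdkn1c the shared H3K36me3 peak runs from 143237500 to 143298000, for the most part between the 2 H3K27me3 peaks. At Mirg, the only maternal peak with maternal H3K36me3, the shared region was likewise the edge of each.

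In epiblast, the embryonic partner of ExE, the same regions were compared where an epiblast peak met them. An informative epiblast H3K27me3 peak was met by 126 of the 251, and 19 of these were imprinted there, 15 paternal and 4 maternal, all in the ExE direction (0.302% of all informative ExE peaks with such an overlap). An epiblast peak covered at least 50% of the ExE peak in 19 of the 126, and 9 of those 19 were imprinted there (7 paternal and 2 maternal). Of all 8924 informative epiblast peaks 0.325% were imprinted, 0.280% paternal and 0.0448% maternal. The tables differ in depth and peaks, and the difference between tissues was not tested. Grb10 was at 93.0, 90.6, 97.5 and 97.1% paternal in epiblast, and Plagl1 at 93.4, 91.9, 90.9 and 94.9%. The 4 maternal ones were the downstream Zdbf2 peak (15.6, 13.2, 12.1 and 11.4%), 1700017I07Rik (14.2, 17.98, 11.4 and 10.0%), Dlk1 (21.2, 25.2, 25.3 and 28.5%) and the Nelfcd peak beyond Gnas (26.9, 25.98, 28.4 and 29.0%). Sfmbt2 had 37.6, 38.4, 37.0 and 39.2% in epiblast but passed in CAST/B6 only (adjusted p = 0.310 and 1.49e-11). Sall1 and 2410003L11Rik had no informative epiblast peak.

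Imprinted peaks were long and well covered. Their median length was 58.5 kb against 13.5 kb for all informative peaks, and their median number of allelic reads 2000 against 385. Per kb the reads were alike (32.9 and 30.2). A start site lay in 75% of isolated maternal and 67.8% of isolated paternal peaks, against 40.7% of informative peaks. These groups had median lengths of 54.5 and 44.5 kb, and a longer peak has more room for a start site. Peaks of like length were not compared. The observed over expected CpG ratio had medians of 0.239 and 0.210 in these groups, 0.181 in paternal runs and 0.207 over all. Both crosses' peak lists held 232 of the 251 (92.4%), where 74.8% of informative peaks were in both. Without regard to the allele, the median H3K27me3 level was 0.907 ± 0.066 RPKM (SD, n = 4) over imprinted and 0.787 ± 0.040 over all informative peaks, with inputs of 0.518 and 0.514 RPKM. Isolated maternal peaks stood at 1.08 ± 0.15 RPKM for H3K27me3, and at 0.530 ± 0.073 RPKM for H3K4me3 against 0.220 ± 0.046 over all.

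Of 91 listed imprinted genes, 69 had an informative peak and 50 an imprinted one, in 30 distinct peaks since long peaks cover several genes, where 1.35% of all informative peaks were imprinted. By the best covered peak of each gene, the higher allele was the one the gene is not expressed from in 39 genes and the other in 11. Of the 30 distinct peaks, 20 were higher on the silent allele of each listed gene they stand for, 6 on the expressed allele, and 4 on the silent allele of some genes and the expressed allele of others. Gnas, Nespas, Gpr1 and Sfmbt2 had imprinted peaks of both directions. The Airn and Kcnq1ot1 clusters had 10 of 10 and 16 of 16 genes, in 7 and 4 distinct peaks, the Dlk1 and Dio3 domain 6 of 6, the Prader-Willi domain 0 of 5 and the Peg10 cluster 0 of 6. Magel2, in the Prader-Willi domain, leaned paternal in each library (53.0, 53.2, 57.9 and 51.6%) but passed in CAST/B6 alone (adjusted p = 0.0786 and 0.0201). Of the noncanonical list, Slc38a4, an amino acid transporter, had 15.4, 23.1, 46.2 and 42.1% and passed in B6/CAST alone. Gab1, a signalling adaptor, had 50, 49.2, 63.6 and 66.7% and passed in CAST/B6 alone, on the paternal side. Casd1 in the Peg10 cluster was strain-specific, with the B6 allele higher in both crosses.

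Just inside were Zfhx3 (log2 ratios of 0.44 and 0.60) and Acat3 (1.19 and 1.77, on 162 reads) among paternal peaks, and Sel1l3 (-0.41 and -0.39) and AC134555.1 (-0.35 and -0.26) among maternal ones. Just outside were Avpr1a (0.56 and 0.79), 4933432K03Rik (0.87 and 0.62), Cela1 (-1.11 and -0.36) and Zbtb40 (-0.42 and -0.55). At unadjusted p-values below 0.05 in both crosses there were 405 paternal and 127 maternal peaks. A fit of all 4 libraries with terms for cross, strain and parent called 1352 peaks (7.27%), 883 paternal (4.75%) and 469 maternal (2.52%), and all 251 imprinted peaks were among them. Counted with library totals in place of TMM factors, 163 peaks were paternal and 75 maternal, so 68.5% were paternal in place of 83.3%. Each library as a replicate block gave 281 and 81, and DESeq2 82 and 12. With 1 library left out, the count of imprinted peaks was lowest, at 121, without B6/CAST replicate 1, and it was 151 without B6/CAST replicate 2 and 148 without CAST/B6 replicate 1.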

How the data were processed

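Per the labels and the study's methods, the authors trimmed reads with Trim Galore (0.4.4 in the submitters' processing notes), aligned them with Bowtie2 2.3.2 to a GRCm38 genome masked at strain SNPs, assigned them to alleles with SNPsplit and called peaks with chromstaR. The authors deposited allelic read counts per peak, not normalized, and RPKM values in 1-kb windows. Reads without a SNP are not in the allelic counts. The peak names give other ends than the position columns in 6296 peaks (26.6%), and the columns were used. Columns with no sample numbered 0.

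The counts of each cross were fitted with edgeR 4.0.16 (R 4.3.3) by the quasi-likelihood test with TMM factors, and p-values were Benjamini-Hochberg adjusted over all informative autosomal peaks. matDKO/CAST had its own fit. Both allele columns of a library come from 1 pool, so they are paired by construction, and a fit with the library as replicate block was an alternative, as were DESeq2 1.42.0, library totals, other read minimums, thresholds and run definitions, and leaving out each library. With 1 library left out, both crosses (and matDKO/CAST, where its library was left out) shared 1 fit, so the lone library of an arm was assumed to vary like the others. Scripts were tested on simulated data. Peaks of other marks were matched by an overlap of at least 1 base. Named were the imprinted peak with the most reads within 10000 bases of each listed gene, in either direction the 10 best covered and the 5 most biased isolated peaks, in each run the best covered and the most biased peak, and the peaks nearest the threshold. The members and lists were chosen with earlier results of these data known. Other peaks named (Kdm2b, Cav1, Flt1, Lrp1, Fignl2, Zfp945, Ccnd1, Nphp4, Gas7, Trerf1, Prelid3b, Eml1, Actl6b and Itih5) were chosen after their values were seen. A gene that the rule names is not reported here.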

Additional observations from a re-analysis of the deposited data

How the results depend on the processing

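No imprinted peak changed direction under any setting tried, which the call itself favours, as all 4 libraries of each peak leaned to the called side. At adjusted p below 0.01, 152 peaks were imprinted (132 paternal and 20 maternal), 396 strain-specific and 803 called in the fit of all 4 libraries. With library totals there were 75 maternal peaks of 238, and 68.5% were paternal in place of 83.3%, as the median of all peaks moved to -0.06 in B6/CAST and -0.03 in CAST/B6. With the paired fit, each library as a replicate block, 362 were imprinted (281 paternal and 81 maternal), 1073 strain-specific, 1884 called in the joint fit and 69 called on the same side in matDKO/CAST (48 paternal and 21 maternal). DESeq2 called 94 (82 and 12), 92 strain-specific, 427 jointly and 9 in matDKO/CAST (3 and 6). Leaving out each library in turn, with the spread pooled over the crosses, gave 121 to 211 imprinted peaks (105 to 177 paternal, 16 to 34 maternal), 217 to 563 strain-specific and 570 to 1010 jointly called, and 18 to 52 in matDKO/CAST (10 to 34 paternal, 8 to 18 maternal). Runs numbered 16 with at least 3 peaks, 6 with at least 10 peaks or gaps of up to 2 Mb, 8 with gaps of up to 0.5 Mb, and 3 to 16 over all combinations, some of which left 0 maternal runs. Where at least 50% overlap was asked for, 9 of 19 peaks matched an imprinted epiblast peak and 4 of 28 an imprinted H3K36me3 peak. With an opposite peak ending a run, a choice made after the data were seen, there were 8 runs of 124 peaks. Of these runs 7 were paternal (117 peaks) and 1 maternal (7 peaks). The run beside Sfmbt2 was lost, and the maternal run lost Eml1, Begain and Dlk1. Under all 11 settings the call was kept by 4 of 32 isolated maternal peaks (the downstream Zdbf2 peak, the Sfmbt2 start, Sall1 and 1700017I07Rik), 6 of 87 isolated paternal ones (2 at Gnas, Mest, Plagl1, Grb10 and Rtl1), 7 of 10 in the maternal run and 65 of 122 in paternal runs. The causes were not tested. Short peaks such as the upstream Gnas one rest on few reads, and 2 libraries a cross limit all calls.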
